A study of Mus musculus with 6 samples.

Results

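The genes described here are 10 genes by which a cell stores, takes up and exports iron and makes and breaks down heme: Fth1, Ftl1, Tfrc, Slc40a1, Slc11a2, Hmox1, Alas1, Fech, Aco1 and Ireb2. They were chosen by name, and each was read from its most abundant RefSeq transcript. All 10 were found among the 22466 genes that have a RefSeq transcript in the deposited table, and all 10 passed the minimum abundance for testing. RNA was sequenced from 6 cultures of primary brown adipocytes, 3 WT (cultures 10, 11 and 12) and 3 Ucp1-KO (cultures 13, 14 and 15), described by the submitters as independent cultures. The WT cultures came from wildtype mice of strain 129SvEvS1 and the Ucp1-KO cultures from mice of genotype UCP1(-/-) on that strain. All donors were males of 5 to 6 weeks, and whether a culture came from 1 animal or from pooled animals is not given in the sources used here. Precursor cells of interscapular brown fat were induced for 2 days with isobutylmethylxanthine, indomethacin, dexamethasone, insulin, T3 and rosiglitazone and kept for 7 days with insulin, T3 and rosiglitazone, without adrenergic stimulation. The comparison of the genotypes asks whether transcripts of iron and heme handling differ in brown adipocytes that lack the thermogenic uncoupling protein 1.

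Iron is held in ferritin, a shell of heavy chains (Fth1) and light chains (Ftl1), enters cells mostly on transferrin through the transferrin receptor (Tfrc), and leaves them through ferroportin (Slc40a1). The iron regulatory proteins IRP1 (Aco1) and IRP2 (Ireb2) bind a hairpin in mRNA, the iron-responsive element: on the 5′ untranslated region (UTR) of ferritin or ferroportin this blocks translation, and on the 3′ UTR of the transferrin receptor it protects the mRNA from decay. Brown fat is dense in mitochondria, whose respiratory chain needs heme and iron-sulfur clusters. Heme synthesis begins with 5-aminolevulinate synthase (Alas1) and ends with ferrochelatase (Fech), and heme oxygenase 1 (Hmox1) opens the heme ring and releases its iron.

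The iron-responsive elements are shown because they set apart the members whose mRNA the iron regulatory proteins can bind. The motif searched was CNNNNNCAGTGN, a bulged C, 5 bases and a loop of 6 bases, of which the 5 bases had to pair with the 5 bases after the loop, G with T allowed. Member transcripts of GENCODE M21 (GRCm38) were searched over their whole length on the sense strand, and the capitals mark the loop. For the shares over all genes, only the UTRs were searched. In the 5′ UTR, 3 members held a match, in exon 1 of each: Fth1 at chr19:9982732-9982760 on the plus strand, Ftl1 at chr7:45459779-45459807 and Slc40a1 at chr1:45925465-45925493, both on the minus strand.
Fth1: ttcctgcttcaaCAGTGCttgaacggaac
Ftl1: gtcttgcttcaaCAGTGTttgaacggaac
Slc40a1: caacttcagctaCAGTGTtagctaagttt

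Both ferritin chains carried nearly the same 29 bases, while the stem of Slc40a1 had other letters. Tfrc held 4 matches, all in exon 19 within its 3′ UTR on the plus strand, at chr16:32631219-32631247, chr16:32631598-32631626, chr16:32631663-32631691 and chr16:32631710-32631738. With 1 unpaired base allowed after the loop, a match was also found in exon 16, in the 3′ UTR, of the more abundant Slc11a2 transcript, at chr15:100395153-100395181 on the minus strand.
Tfrc 1: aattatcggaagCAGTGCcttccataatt
Tfrc 2: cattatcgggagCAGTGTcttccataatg
Tfrc 3: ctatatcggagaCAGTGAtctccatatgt
Tfrc 4: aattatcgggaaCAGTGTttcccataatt
Slc11a2: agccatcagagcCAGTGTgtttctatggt

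Of all genes with an annotated 5′ UTR, 28 of 20607 (0.136%) held the paired motif there, and 44 (0.214%) with 1 unpaired base. The paired motif stood in the 3′ UTR of 141 of 20950 genes (0.673%), and the form with 1 unpaired base in that of 269 (1.28%). Among the transcripts of Hmox1, Alas1, Fech, Aco1 and Ireb2, 0 matches were found. This says only that the motif with this pairing is not in the annotated transcripts searched. A match is a description of the sequence, and binding was not measured.

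Abundance is given in RPKM, the reads on a transcript normalized to its length and to the mapped reads of the culture, so that levels of different genes can be compared. The values rested on 14989604 to 17727653 reads per culture, at which 3 reads on 2000 bases correspond to 0.0846 to 0.1001 RPKM (this limit reflects the counting of reads alone). The targeted gene Ucp1 was found at 1775, 981 and 1157 RPKM in the WT and at 307, 409 and 398 RPKM in the Ucp1-KO cultures (log2 fold change -1.78, SE 0.24, limma unadjusted p = 0.000157, adjusted p = 0.868), what remains being a remnant transcript that the locus still makes. The 8 brown adipocyte markers all passed the minimum abundance. Their sums lay between 1814 and 2031 RPKM in WT and between 1680 and 2700 RPKM in Ucp1-KO cultures. Of these markers, 7 were higher and 1 lower on average in the Ucp1-KO cultures, with 0 at a limma unadjusted p under 0.05. Of 7 general adipocyte markers, 6 were higher on average in the Ucp1-KO cultures and 1, Cfd, was lower (limma unadjusted p = 0.0268, adjusted p = 0.868). The 8 macrophage markers summed to 61.7 to 192 RPKM in WT but to 170, 848 and 43.3 RPKM in Ucp1-KO cultures 13, 14 and 15, and all 8 were highest in culture 14. Of 9 stromal and preadipocyte markers tested, 9 were lower on average in the Ucp1-KO cultures, 2 of them (Dcn and Lum) at an unadjusted p under 0.05. In such bulk RNA, fewer cells of a type and less RNA per cell cannot be told apart.

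The 10 transcripts differed widely in abundance. Fth1 was the most abundant, followed by Hmox1, Ftl1, Alas1, Aco1, Fech, Tfrc, Slc11a2, Ireb2 and Slc40a1. By its mean over the 6 cultures, Fth1 ranked 8 of 28890 RefSeq transcripts, Hmox1 ranked 83, Ftl1 145 and Alas1 413, and Slc40a1 ranked 12033. Neighbours in this order that overlapped over the 6 cultures were Hmox1 and Ftl1, Fech and Tfrc, and Slc11a2 and Ireb2.

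**Figure D1:**
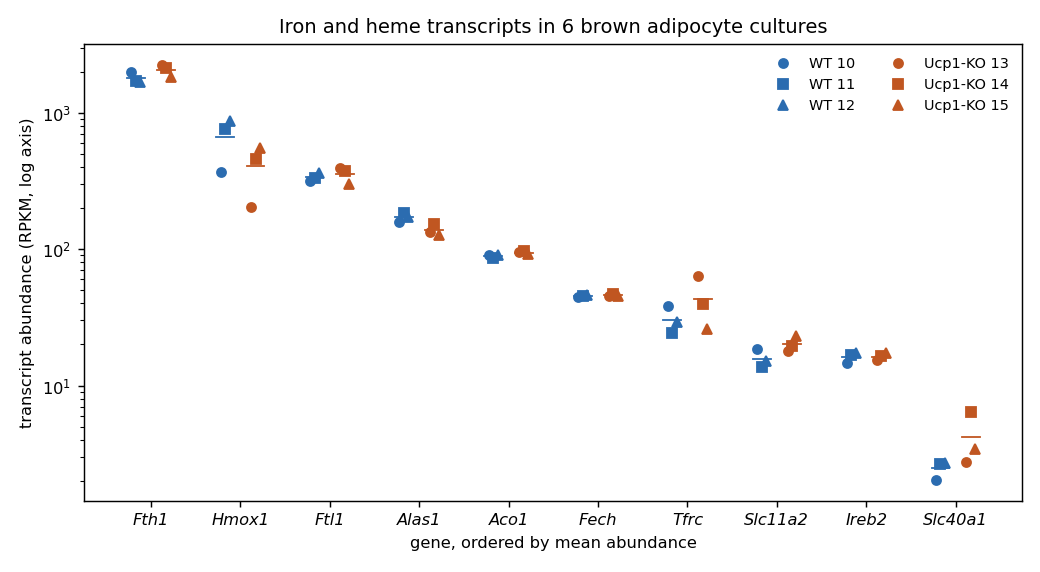
Transcript abundance in RPKM (log axis) of the 10 genes in each of 6 cultures, ordered by mean abundance. Symbols are cultures (WT 10, 11, 12 in blue and Ucp1-KO 13, 14, 15 in orange) and short lines are means. Fth1 lay between 1674 and 2252 RPKM and Slc40a1 between 2.03 and 6.39 RPKM. Hmox1, Tfrc and Slc40a1 spread most between cultures.

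Over all 16865 RefSeq transcripts tested, limma called 0 (0.0%) at an adjusted p under 0.05. The same threshold in limma-voom on reads computed from the RPKM values also called 0. The smallest adjusted p in limma was 0.868, so that the targeted gene Ucp1 was not called either. A transcript not called here is therefore not shown to be unchanged. At an unadjusted p under 0.05, limma gave 935 transcripts (5.54%), of which 388 (2.3%) were higher and 547 (3.24%) lower in Ucp1-KO, and limma-voom gave 892. Of the 10 members, 0 passed the adjusted threshold and 2 had an unadjusted p under 0.05, Slc11a2 with the higher and Alas1 with the lower mean in Ucp1-KO. The genotypes did not overlap in 3 members, beside 11.2% of all transcripts tested. In Slc40a1 and Aco1 all Ucp1-KO cultures lay above all WT cultures, as in 6.04% of all transcripts, and in Alas1 all lay below, as in 5.15%. With 10 genes, each of these shares rests on 1 to 3 members. The mean was higher in Ucp1-KO for 8 members and lower for 2, and the median log2 fold change was 0.08, compared with -0.0016 over all transcripts.

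**Figure D2:**
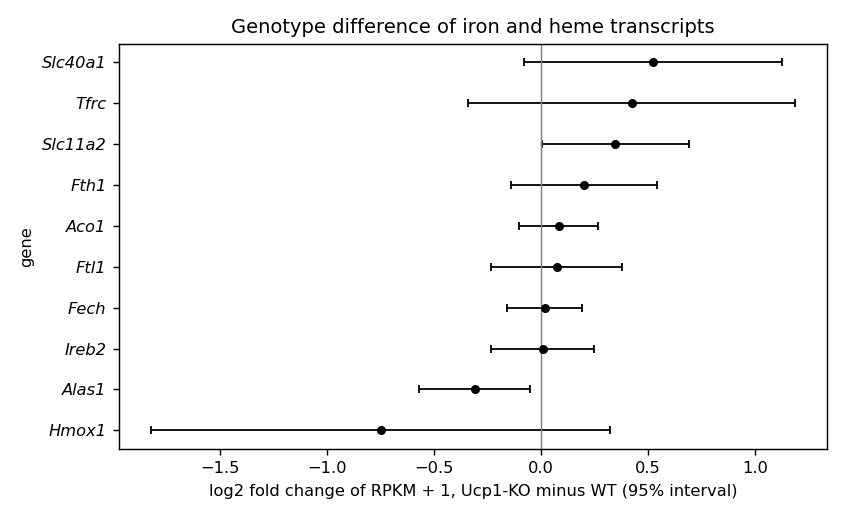
Log2 fold change of RPKM + 1, Ucp1-KO minus WT, for the 10 genes (points), with 95% intervals from limma (bars). The interval of Hmox1 was the widest, from -1.82 to 0.32, and 8 of the 10 intervals included 0. Those of Slc11a2 and Alas1 did not, before adjustment for the number of transcripts.

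Ferritin transcripts were abundant in every culture. Fth1 (NM_010239, chr19:9980598-9985098, plus strand), the heavy chain that oxidizes ferrous iron on entry into the shell, was at 1996, 1726 and 1674 RPKM in WT cultures 10, 11 and 12 and at 2252, 2128 and 1829 RPKM in Ucp1-KO cultures 13, 14 and 15. The groups overlapped, as WT culture 10 lay above Ucp1-KO culture 15. Mean abundance was 1799 ± 173 RPKM (WT) and 2070 ± 217 RPKM (Ucp1-KO; SD, n = 3), with a log2 fold change of 0.20 (SE 0.14, limma adjusted p = 0.878) and p = 0.2 in an exact two-sided permutation test. In a comparison of 3 with 3 cultures, the smallest p this permutation test can give is 0.1.

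Ftl1 (NM_010240, chr7:45457944-45459884, minus strand), the light chain that helps form the iron core, was measured at 315, 333 and 363 RPKM in WT and 392, 374 and 303 RPKM in Ucp1-KO cultures. Its lowest and its highest value both belonged to Ucp1-KO cultures. The means of 337 ± 23.9 and 356 ± 47.1 RPKM (SD, n = 3) differed by 0.07 on the log2 scale (SE 0.13, limma adjusted p = 0.943), by 0.00029 without Ucp1-KO culture 13 and by 0.19 without Ucp1-KO culture 15. The level of Ftl1 is uncertain, because 833 of the 919 stretches of 50 bases in its transcript (90.6%) also occur in transcripts of 17 other genes, 675 of them in the pseudogene Ftl1-ps1, and the authors kept uniquely identified reads only. For Fth1 this was so of 58 of 880 stretches (6.59%).

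The deposited abundance of Fth1 was several times that of Ftl1 throughout, at ratios of 6.33, 5.19 and 4.62 in WT and 5.75, 5.69 and 6.04 in Ucp1-KO cultures. The Ucp1-KO ratios lay within the range of WT (exact two-sided permutation p = 0.5). Given the shared stretches of Ftl1, the ratio can be compared between cultures but not read as the ratio of the chains.

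Of the 3 members that carry iron across membranes, Tfrc and Slc40a1 varied more between cultures than Slc11a2. Tfrc (NM_011638, chr16:32608920-32632794, plus strand), the receptor for iron-loaded transferrin, was at 37.99, 24.2 and 29.1 RPKM in WT and at 64.1, 39.6 and 26.0 RPKM in Ucp1-KO cultures. The highest value of all, in Ucp1-KO culture 13, was 2.65 times the lowest, and Ucp1-KO culture 15 lay within the range of WT. Means were 30.4 ± 7.01 and 43.2 ± 19.3 RPKM (SD, n = 3), and the log2 fold change was 0.42 (SE 0.32, limma adjusted p = 0.878). The difference rested on single cultures: it was 0.10 without Ucp1-KO culture 13, 0.28 without WT culture 11 and 0.73 without Ucp1-KO culture 15 (limma adjusted p = 0.838).

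Slc11a2, the divalent metal transporter DMT1 that carries iron out of endosomes, has 2 RefSeq transcripts in the table (chr15:100387898-100425072, minus strand). The more abundant, NM_001146161 of 4373 bases, is the transcript with the iron-responsive element printed above, and was at 18.7, 13.6 and 15.03 RPKM in WT and 18.04, 19.6 and 23.1 RPKM in Ucp1-KO cultures. WT culture 10 lay above Ucp1-KO culture 13, and the other 2 WT cultures lay below all Ucp1-KO cultures. Mean abundance was 15.8 ± 2.63 RPKM (WT) and 20.3 ± 2.59 RPKM (Ucp1-KO; SD, n = 3), a log2 fold change of 0.35 (SE 0.15, limma unadjusted p = 0.0484, adjusted p = 0.868). Without WT culture 10 the unadjusted p was 0.0128 (log2 fold change 0.47), and it was 0.153 (0.25) without WT culture 11 and 0.139 (0.25) without Ucp1-KO culture 15. Without WT culture 12 it was 0.124 and without Ucp1-KO culture 14 it was 0.0852, while median-of-ratios scaling of all cultures gave 0.0661.

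The other transcript of Slc11a2, NM_008732 of 3025 bases, held 0 matches to the motif. It was found at 14.5, 12.3 and 13.5 RPKM in WT and 14.001, 16.3 and 17.8 RPKM in Ucp1-KO cultures, with a log2 fold change of 0.24 (SE 0.12, limma adjusted p = 0.871). Both transcripts share most exons, so that the same reads can count for both. The ratio of NM_001146161 to NM_008732 was 1.29, 1.10 and 1.11 in WT and 1.29, 1.202 and 1.302 in Ucp1-KO cultures (exact two-sided permutation p = 0.2), so that WT culture 10 overlapped with the Ucp1-KO cultures.

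Slc40a1 (NM_016917, chr1:45908068-45926523, minus strand), the iron exporter ferroportin, was the least abundant member. It was at 2.03, 2.66 and 2.72 RPKM in WT, which correspond to 117, 150 and 163 reads, and at 2.75, 6.39 and 3.41 RPKM in Ucp1-KO, or 150, 372 and 173 reads. All 3 Ucp1-KO cultures lay above WT, but culture 13 exceeded the highest WT culture by little, and culture 14 held the highest value, 3.15 times the lowest. Mean abundance was 2.47 ± 0.383 RPKM (WT) and 4.18 ± 1.94 RPKM (Ucp1-KO; SD, n = 3), with a log2 fold change of 0.52 (SE 0.25, limma adjusted p = 0.871, exact two-sided permutation p = 0.1). On the scale of log2(RPKM + 1) the fold change of so low a transcript is understated, and it was 0.69 in limma-voom on reads.

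Ucp1-KO culture 14, which held the highest Slc40a1 value, was also the culture in which all 8 macrophage markers were highest, with a sum of 848 RPKM against 192 RPKM in the next culture. Macrophages are known for abundant ferroportin. Without culture 14 the log2 fold change of Slc40a1 was 0.24 (limma unadjusted p = 0.195), and without culture 13 it was 0.73 (unadjusted p = 0.0226, adjusted p = 0.476). In Ucp1-KO culture 15 the macrophage markers had their lowest sum, 43.3 RPKM, and Slc40a1 was at 3.41 RPKM, above all WT cultures. The part of macrophage RNA in the difference was not tested.

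**Figure D3:**
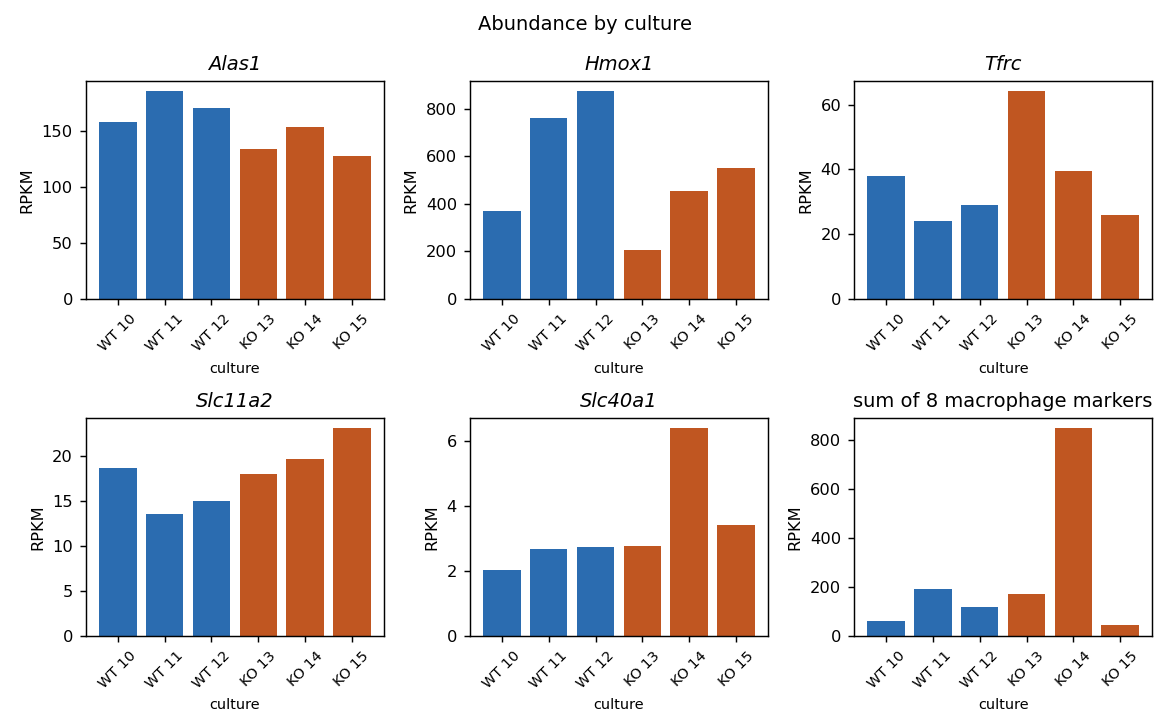
RPKM of Alas1, Hmox1, Tfrc, Slc11a2 and Slc40a1 and the summed RPKM of 8 macrophage markers in each culture (bars, linear axes from 0, WT in blue, Ucp1-KO in orange). Ucp1-KO culture 14 stood highest both for Slc40a1 (6.39 RPKM) and for the macrophage markers (848 RPKM). WT culture 10 and Ucp1-KO culture 13 had the lowest Hmox1 and the highest Tfrc of their genotype.

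In heme synthesis, the first enzyme varied more between cultures than the last. Alas1 (NM_020559, chr9:106233455-106248654, minus strand), the rate-limiting enzyme of the pathway outside red cells, was at 158, 185 and 171 RPKM in WT and 134, 153 and 127 RPKM in Ucp1-KO cultures. All 3 Ucp1-KO cultures lay below WT, with Ucp1-KO culture 14 and WT culture 10 next to each other. The mean of 138 ± 13.6 RPKM in Ucp1-KO was 80.6% of the 171 ± 13.6 RPKM in WT (SD, n = 3), with a log2 fold change of -0.31 (SE 0.11, limma unadjusted p = 0.0261, adjusted p = 0.868, exact two-sided permutation p = 0.1).

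The lower mean of Alas1 was found in every setting, while its unadjusted p was not under 0.05 in each of them. It was 0.0182 after median-of-ratios scaling and 0.0310 in limma-voom. Leaving out single cultures gave log2 fold changes between -0.39 and -0.25, with an unadjusted p of 0.0908 without WT culture 11, 0.0706 without WT culture 12, 0.0608 without Ucp1-KO culture 13 and 0.0709 without Ucp1-KO culture 15. Alas1 overlaps the antisense gene 4930500F10Rik, which shares 368 of 3350 stretches of 50 bases (10.99%) of the GENCODE transcript of Alas1 (3399 bases). The library kit does not mark strand, so that reads of both cannot be told apart there. The length computed for the measured Alas1 transcript was 2702 bases, so that its share may differ. Of the 9 Alas1 transcripts of all annotations in the table, which share reads, 9 were lower in Ucp1-KO and in 8 the genotypes did not overlap.

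Fech (NM_007998), the ferrochelatase that inserts iron into protoporphyrin, was the steadiest member. It was at 44.97, 45.2 and 46.3 RPKM in WT and 45.5, 46.9 and 45.7 RPKM in Ucp1-KO cultures, so that the highest value was 1.04 times the lowest. The groups overlapped, and the log2 fold change of 0.02 had a 95% interval from -0.16 to 0.19 (limma adjusted p = 0.977).

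Of the 10 members, the gene of heme breakdown showed the widest spread. Hmox1 (NM_010442, chr8:75093621-75100589, plus strand), the stress-inducible heme oxygenase, was at 371, 760 and 872 RPKM in WT and 205, 456 and 553 RPKM in Ucp1-KO cultures. The highest value was 4.25 times the lowest, and WT culture 10 lay below Ucp1-KO cultures 14 and 15. Mean abundance in Ucp1-KO was 404 ± 179 RPKM, 60.6% of the 668 ± 263 RPKM in WT (SD, n = 3), but with a log2 fold change of -0.75 and an SE of 0.45 the difference did not pass the test (limma adjusted p = 0.876, exact two-sided permutation p = 0.3).

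How large the Hmox1 difference came out depended on the cultures included. It was -1.13 (limma unadjusted p = 0.0382, adjusted p = 0.467) without WT culture 10 and -0.32 without Ucp1-KO culture 13. Both cultures also had the highest Tfrc of their genotype.

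Transcripts of the iron regulatory proteins varied little between cultures. Aco1 (NM_007386, chr4:40143081-40198338, plus strand) encodes IRP1, which is a cytosolic aconitase while it carries an iron-sulfur cluster, and was at 91.3, 86.3 and 90.1 RPKM in WT and 95.3, 96.5 and 91.8 RPKM in Ucp1-KO cultures. The Ucp1-KO cultures all lay above WT, though the means of 89.2 ± 2.62 and 94.5 ± 2.45 RPKM (SD, n = 3) differed by 0.08 on the log2 scale (SE 0.08, limma adjusted p = 0.894, exact two-sided permutation p = 0.1). After median-of-ratios scaling the genotypes overlapped in Aco1. Ireb2 (NM_022655, chr9:54863789-54912530, plus strand) encodes IRP2, which is degraded when iron is plentiful, and was at 14.5, 16.7 and 17.4 RPKM in WT and 15.3, 16.4 and 17.2 RPKM in Ucp1-KO cultures. Its groups coincided, with a log2 fold change of 0.01 (95% interval from -0.23 to 0.25, limma adjusted p = 0.993). Between the regulators, the transcript of Aco1 was the more abundant in every culture.

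To show how the rest of the pathway behaved, 94 further genes of iron and heme handling were read in 8 lists. Of these, 84 passed the minimum abundance, 42 with the higher and 42 with the lower mean in Ucp1-KO. The median log2 fold change was -0.00014, and 0 passed the adjusted threshold in limma. At an unadjusted p under 0.05 there were 3 genes (3.57%, against 5.54% of all transcripts), 2 higher and 1 lower, and in 7 genes (8.33%, against 11.2%) the genotypes did not overlap. The count at that p was 12 genes (14.3%) without WT culture 10 and without Ucp1-KO culture 13, above the 10.4% and 9.14% of all transcripts in these settings.

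**Figure D4:**
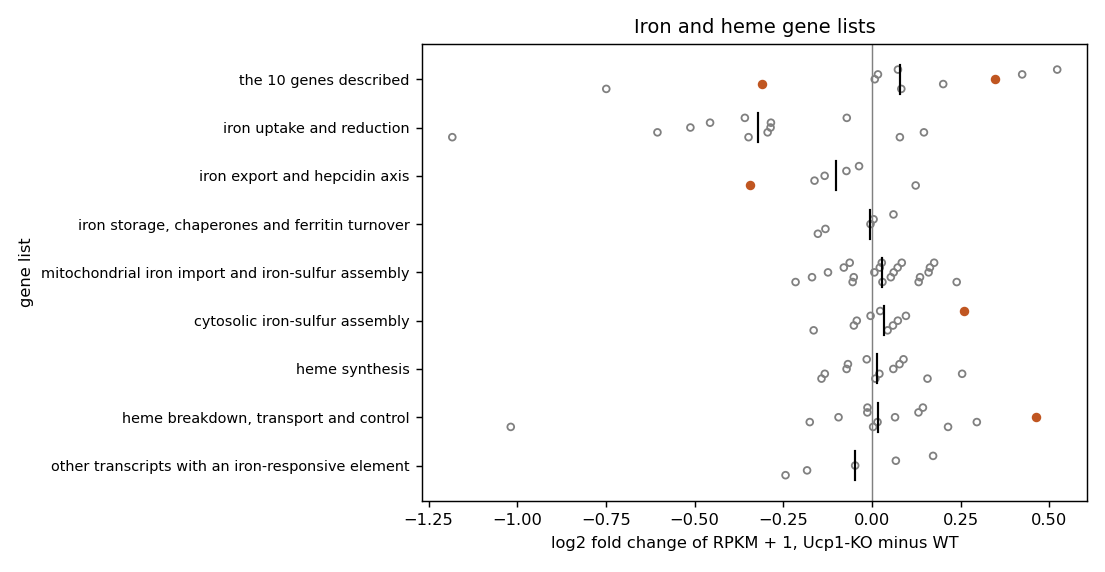
Log2 fold change of RPKM + 1, Ucp1-KO minus WT, of each gene tested (points), by list. Filled points had an unadjusted p under 0.05 in limma and vertical bars are list medians. The median of iron uptake and reduction, -0.32, lay farthest from 0, and those of the iron-sulfur and heme lists lay between 0.02 and 0.03.

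For iron uptake and reduction, a list of other receptors, ferrireductases and carriers, 12 of 14 genes were tested. The mean was lower in Ucp1-KO for 10 of them and higher for 2, the median log2 fold change was -0.32, and 0 genes had an unadjusted p under 0.05 or genotypes that did not overlap. The most abundant was the ferrireductase Steap4, at 532, 404 and 348 RPKM in WT and 458, 390 and 361 RPKM in Ucp1-KO cultures, which overlapped widely. Named after its values were seen, Lcn2, which binds iron-carrying siderophores, had the lowest log2 fold change, -1.18 (SE 0.55, limma adjusted p = 0.868). WT culture 11 held the highest value in 7 of these 12 genes and in 8 of the 9 stromal and preadipocyte markers tested, and Ucp1-KO culture 15 the lowest in 5 of both. Summed stromal markers were at 744, 1707 and 1033 RPKM in WT and 1004, 924 and 631 RPKM in Ucp1-KO cultures, and the 4 endothelial markers tested were likewise lower on average in Ucp1-KO and highest in WT culture 11, in 4 of 4. The part of stromal or endothelial cells in the lower means was not tested.

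Of the 11 genes of iron export and the hepcidin axis, 6 passed the minimum, 1 with the higher and 5 with the lower mean in Ucp1-KO. Hamp and Hamp2, which encode the hormone hepcidin and its relative, were listed at 0 in every culture. The most abundant was Cp, ceruloplasmin, a copper oxidase that helps load iron onto transferrin, at 37.8, 42.2 and 34.0 RPKM in WT and 38.3, 43.8 and 29.9 RPKM in Ucp1-KO cultures. Neo1, neogenin, a co-receptor in the control of hepcidin, was at 7.06, 8.53 and 7.98 RPKM in WT and 6.13, 5.86 and 5.91 RPKM in Ucp1-KO cultures. All Ucp1-KO cultures lay below WT in Neo1, with a log2 fold change of -0.34 (SE 0.10, limma unadjusted p = 0.0112, adjusted p = 0.868).

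Iron chaperones and factors of ferritin turnover stood close to 0, with 5 of 7 genes tested and a median log2 fold change of -0.0040. Pcbp1, which delivers iron to ferritin, was the most abundant at 80.9, 93.2 and 84.5 RPKM in WT and 79.7, 79.8 and 72.7 RPKM in Ucp1-KO cultures. Its Ucp1-KO cultures all lay below WT, by little between WT culture 10 and Ucp1-KO culture 14 (log2 fold change -0.15, SE 0.09, limma adjusted p = 0.876).

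All genes listed for the assembly of iron-sulfur clusters passed the minimum abundance. All 21 mitochondrial genes were tested, 14 with the higher and 7 with the lower mean in Ucp1-KO, and 0 had an unadjusted p under 0.05. The chaperone Hspa9 was the most abundant at 498, 516 and 540 RPKM in WT and 420, 486 and 527 RPKM in Ucp1-KO cultures, and the groups overlapped.

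On the cytosolic side, 6 of 10 genes had the higher and 4 the lower mean in Ucp1-KO. Ciapin1, an electron carrier of this pathway, was at 19.5, 15.2 and 16.6 RPKM in WT and 20.8, 19.9 and 20.97 RPKM in Ucp1-KO cultures. The genotypes did not overlap, and its log2 fold change was 0.26 (SE 0.11, limma unadjusted p = 0.0480, adjusted p = 0.868). Median-of-ratios scaling gave an unadjusted p of 0.0818. The most abundant gene, Fam96a, lay between 46.6 and 52.6 RPKM over all cultures.

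Between Alas1 and Fech, the other genes of heme synthesis were balanced, with 12 of 13 tested, 7 higher and 5 lower in Ucp1-KO, a median log2 fold change of 0.02 and 0 genes at an unadjusted p under 0.05. Slc25a39, a mitochondrial carrier needed for heme synthesis, was the most abundant at 211, 222 and 224 RPKM in WT and 199, 215 and 213 RPKM in Ucp1-KO cultures. Urod, uroporphyrinogen decarboxylase, was the only gene of the list whose genotypes did not overlap and was named after its values were seen. It was at 53.5, 53.5 and 53.1 RPKM in WT and 56.2, 56.9 and 66.2 RPKM in Ucp1-KO cultures (limma unadjusted p = 0.135). The erythroid form of the first enzyme, Alas2, was below the minimum, at 0.121 to 0.344 RPKM.

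Downstream of heme oxygenase, Blvra stood out among the 13 genes of heme breakdown, transport and control. Blvra encodes biliverdin reductase A, which turns the product of heme oxygenase into bilirubin, and was at 37.9, 29.8 and 30.3 RPKM in WT and 44.98, 49.9 and 40.7 RPKM in Ucp1-KO cultures. All Ucp1-KO cultures lay above WT, with means of 32.6 ± 4.53 and 45.2 ± 4.64 RPKM (SD, n = 3), a log2 fold change of 0.46 (SE 0.13) and a limma unadjusted p of 0.00889, but an adjusted p of 0.868. Leaving out single cultures gave log2 fold changes between 0.39 and 0.57. The heme exporter Flvcr1, named after its values were seen, was the other gene whose Ucp1-KO cultures all lay above WT, at 2.85, 2.52 and 2.82 RPKM in WT and 2.95, 4.202 and 3.66 RPKM in Ucp1-KO cultures.

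The most abundant gene of that list was Hp, haptoglobin, which binds free hemoglobin and is secreted by adipocytes. It was at 1496, 1777 and 828 RPKM in WT and 1478, 619 and 288 RPKM in Ucp1-KO cultures. With Ucp1-KO culture 13 within the range of WT, the log2 fold change of -1.02 had an SE of 0.59 (limma adjusted p = 0.876). Red blood cell RNA was near 0, as 8 erythroid markers of the table summed to 0.0435 to 0.249 RPKM per culture and 4 of them were at 0 in all cultures.

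Of the 5 other transcripts on the list of known iron-responsive elements, 2 had the higher and 3 the lower mean in Ucp1-KO, with 0 at an unadjusted p under 0.05. Among the members, the transcripts with the element in the 5′ UTR had log2 fold changes of 0.20 (Fth1), 0.07 (Ftl1) and 0.52 (Slc40a1), and those with it in the 3′ UTR 0.42 (Tfrc) and 0.35 (Slc11a2). Transcript abundance does not show a block of translation, so that the protein level of ferritin and ferroportin was not addressed by these data.

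Of the 10 members, Hmox1 and Tfrc had the largest SD over the 6 cultures, 0.76 and 0.51 on the scale of log2(RPKM + 1), and the genes with the most similar profiles were searched among the other 12258 genes tested, as the root mean square difference of the profiles after each was centred on its own mean. Closest to Hmox1 were Aldoc (0.095), Rcor2 (0.18) and Stbd1 (0.19). Aldoc, a fructose-bisphosphate aldolase, was at 7.85, 17.6 and 18.6 RPKM in WT and 3.71, 8.76 and 13.6 RPKM in Ucp1-KO cultures, and like Hmox1 it was lowest in WT culture 10 and Ucp1-KO culture 13 of their genotypes. Closest to Tfrc were Tmem120b (0.066), Paqr9 (0.10) and Chrna2 (0.11). Tmem120b was at 29.5, 19.6 and 21.3 RPKM in WT and 47.8, 27.8 and 19.2 RPKM in Ucp1-KO cultures, highest in the same cultures as Tfrc. With 6 cultures, likeness of this kind is a description only.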

How the data were processed

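Libraries from total RNA of 6 cultures were read by the authors as single 50-base reads. In Genomatix software they were aligned to GRCm38, and reads with a unique placement were counted per annotated transcript. The deposited values are RPKM, normalized to transcript length and mapped reads. The submitters' processing notes name CASAVA and bcl2fastq, with versions not given in the sources used here. Each of the 6 value columns carries the name of its culture, and the number of further value columns was 0.

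Of 168326 transcripts listed, 28890 were RefSeq transcripts (26277 coding and 2613 non-coding). Those with a mean of at least 0.5 RPKM (16865, from 12259 genes) entered a moderated linear model on log2(RPKM + 1) with an intensity trend and no covariates (limma 3.58.1, R 4.3.3), with Benjamini-Hochberg adjustment and a threshold of 0.05. For each member an exact permutation test, two-sided, was run on the RPKM values. Library totals were computed from the steps of low RPKM values, and with them 16865 of 16865 tested transcripts gave whole reads (within 0.05 of a read). This recovery was tested on simulated data, where 6 of 6 totals and 493 of 500 transcripts came out right. Reads of same-genotype cultures differed far beyond sampling noise (chi-square per degree of freedom at least 10.9), so each culture counted as 1 replicate. P-values measure the spread between these cultures.

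UTRs, loci and shared stretches of 50 bases came from GENCODE M21 (GRCm38). Its transcripts can differ in length from those computed from the RPKM values, for example 929 against 866 bases for Fth1. Other steps ran in Python 3.11.15 (matplotlib 3.10.9, scipy 1.17.1, pandas 2.3.3, numpy 2.4.6). The members and lists were chosen with earlier results of these data known. Named are all members and, of each further list, genes with an unadjusted p under 0.05 and the most abundant gene, besides the 3 genes with the nearest profile for the 2 most variable members. Values of a few named genes are not given here. Flvcr1 was read under its older symbol Mfsd7b. Alternatives were a constant of 0.1 RPKM, all transcripts of the table, 1 transcript per gene, no minimum abundance, median-of-ratios scaling, limma-voom on the recovered reads, the median over a member's RefSeq transcripts, and leaving out each culture.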

Additional observations from a re-analysis of the deposited data

How the results depend on the processing

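No member passed the adjusted threshold in any alternative run, and the direction of each member other than Ireb2 held in all of them. The number of members with an unadjusted p under 0.05, 2 of 10, was 1 with no minimum abundance and 1 with median-of-ratios scaling, and 0 to 3 when single cultures were left out. Leaving out single cultures also moved the share of transcripts with an unadjusted p under 0.05 (1.88% to 10.4%, highest without WT culture 10 and lowest without WT culture 11), the further iron and heme genes with such a p (2 to 12 of 84, 12 without WT culture 10 and without Ucp1-KO culture 13, when 10.4% and 9.14% of all transcripts had one), the members whose genotypes did not overlap (3 to 6, 6 without WT culture 10, where the share of all transcripts was 32.8%, and without Ucp1-KO culture 15, where it was 20.5%) and the median log2 fold change of the members (0.051 to 0.14, the latter without Ucp1-KO culture 15). Median-of-ratios scaling left 2 members without overlap, as Aco1 then overlapped. Fewer cultures make a lack of overlap likelier by construction. Ireb2, near 0 throughout, changed sign without WT culture 10 (-0.064) and without Ucp1-KO culture 15 (-0.030), in a range up to 0.059. No paired analysis was possible because the genotypes share no replicate number. The least abundant member, Slc40a1, had 117 reads in its lowest culture.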
